A study of Homo sapiens with 9 samples.

Results

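The 10 genes described here make up the core of the NRF2, thioredoxin and glutathione system: NFE2L2, KEAP1, TXN, TXNRD1, PRDX1, SRXN1, GCLC, GCLM, GSR and NQO1. They were chosen by gene name, are 10 of the 58735 genes listed in the count files, and all 10 had enough reads to be tested among 18319 genes. Messenger RNA was sequenced from HEK293T cells, a human embryonic kidney line, in which PRPS1 carries an HA epitope with a dTAG degron and PRPSAP1 carries a V5 epitope with a BromoTag degron. PRPS1 makes phosphoribosyl pyrophosphate, the ribose donor of nucleotide synthesis, and PRPSAP1 is a protein associated with it. The comparisons were set up to address what loss of each protein does to gene expression. No untagged cells given the depleting compounds are among the libraries. Effects of a compound itself and of loss of its target therefore cannot be told apart. All 9 libraries come from this double-degron genotype: 3 from cells given dTAG47 at 500 nM for 24 h to deplete PRPS1, 3 from cells given AGB1 at 500 nM for 24 h to deplete PRPSAP1, and 3 from cells given DMSO for 24 h. Whether the line is 1 clone, and whether libraries given the same treatment were cultured separately, is not stated in the labels, so p-values reflect the variation among these libraries and that variation may be technical.

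NRF2, the protein made from NFE2L2, is a transcription factor that is held at low levels by KEAP1, an adaptor that presents it for ubiquitination. When reactive cysteines of KEAP1 are modified by oxidants or electrophiles, NRF2 accumulates, pairs with small MAF proteins and binds antioxidant response elements in front of genes for thiol chemistry. The thioredoxin branch passes electrons from NADPH through thioredoxin reductase to thioredoxin and on to peroxiredoxins, which reduce peroxides. The glutathione branch builds glutathione with glutamate-cysteine ligase and keeps it reduced with glutathione reductase.

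The antioxidant response element has the core TGACNNNGCA, and promoter sequence of 300 bases, from 250 bases before to 50 bases after each annotated start, was read from RefSeq (GRCh38.p14) for 8 of the 10 genes (all but PRDX1 and GSR), with 11 promoters in all. A search of both strands found the core in 3 of the 11 promoters, those of GCLM, KEAP1 and TXNRD1, against 3.18% of the 35116 promoters in the table. The 3 matches are shown because NRF2 is known to act through elements with this core. Whether it acts through these 3 was not tested. Each is read 5′ to 3′ on the strand of its gene, with the 10 bases of the match in capitals, which in all 3 is the core on the opposite strand.
GCLM: ctacgatttcTGCTTAGTCAttgtcttcca
KEAP1: cgcccggctcTGCTTAGTCAtggtgacctg
TXNRD1: agtggatttcTGCTTTGTCAttctgactct
The GCLM stretch lies at chr1:93909446-93909475 on the minus strand, with the match from 35 to 26 bases before the start. In KEAP1 it lies at chr19:10502784-10502813 on the minus strand, from 32 to 23 bases before the more downstream of its annotated starts. In TXNRD1 it lies at chr12:104286919-104286948 on the plus strand, from 103 to 94 bases before its second annotated start. In GENCODE 29 these stretches are overlapped by an exon of 1 of 4 GCLM transcripts, 1 of 10 KEAP1 transcripts and 6 of 24 TXNRD1 transcripts, and are otherwise upstream or intronic. The shorter core TGACNNNGC, which contains every match of the longer one, was present in 4 of the 11 promoters and in 13.3% of all promoters. A match is a stretch of letters and was not tested for binding.

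Levels were measured as CPM (counts scaled to library size, with TMM factors) and, to compare genes with each other, as CPM per kilobase of gene length. Gene length was all annotated exonic bases of a gene, such as 8646 for GCLC, 5979 for NFE2L2 and 5420 for GCLM. Per length, the order in DMSO libraries was TXN, PRDX1, TXNRD1, KEAP1, GSR, GCLM, NFE2L2, GCLC, NQO1 and SRXN1. A single transcript can be shorter than all exonic bases, so this order and the ranks among tested genes hold for this length only. An order by transcript length was not tested. TXN, the small dithiol protein thioredoxin, averaged 388 ± 23.7 CPM per kb with dTAG47, 422 ± 16.4 with AGB1 and 413 ± 29.8 in DMSO (SD, n = 3 each). PRDX1, the abundant cytosolic peroxiredoxin, averaged 244 ± 11.01 CPM per kb with dTAG47, 264 ± 1.49 with AGB1 and 252 ± 9.34 in DMSO. These levels place TXN above 99.7% and PRDX1 above 99.4% of the tested genes. TXNRD1, the cytosolic selenoprotein that reduces thioredoxin, stood at 42.7 ± 1.92 CPM per kb with dTAG47, 45.7 ± 1.65 with AGB1 and 41.5 ± 0.961 in DMSO.

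The other members were lower. KEAP1 and GSR, at 30.3 ± 3.43 and 27.1 ± 1.17 CPM per kb in DMSO (SD, n = 3), overlapped in their DMSO libraries, and so did GCLM (10.5 ± 0.479) and NFE2L2 (9.86 ± 0.583). GCLC followed at 6.11 ± 0.155 and NQO1 at 4.13 ± 0.528. SRXN1, sulfiredoxin, which repairs overoxidised peroxiredoxins, was at 0.890 ± 0.0917 CPM per kb with dTAG47, 1.22 ± 0.0694 with AGB1 and 0.914 ± 0.223 in DMSO. Its counts are small, from 63 to 117 reads per library. A second annotated gene on the same strand, AL121758.1, covers 85.0% of its exonic bases, so reads in the shared part may have been dropped or split, and the SRXN1 level is uncertain to that extent. NFE2L2 shares 17.6% of its exonic bases with AC019080.1 on the same strand (1.42 CPM), and NQO1 shares 17.7% with AC092115.2 on the opposite strand (0 CPM).

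**Figure D1:**
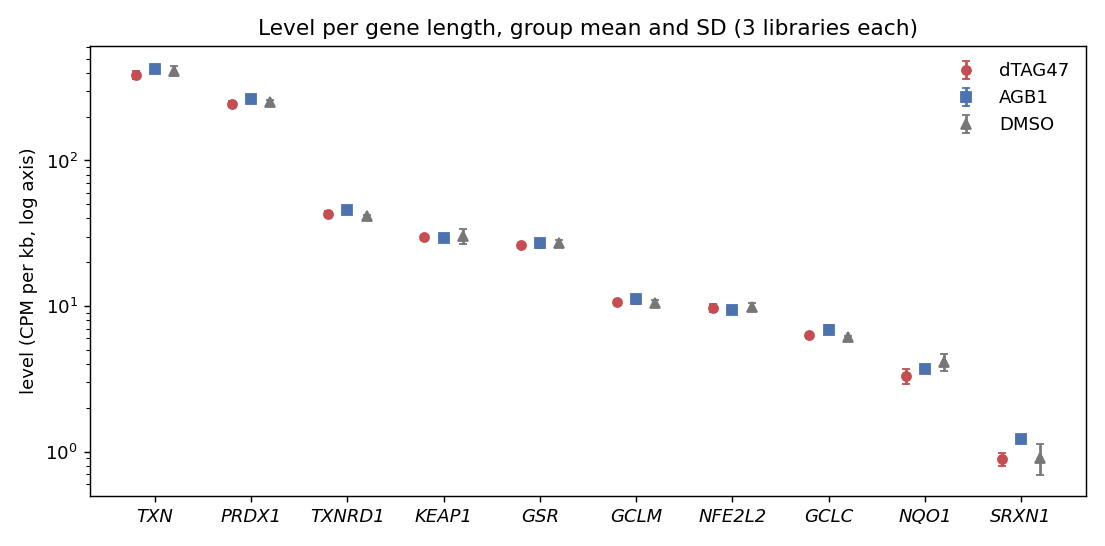
Level of each gene per kilobase of gene length (log axis) with dTAG47, AGB1 and DMSO; symbols are means of 3 libraries and bars are SD. The genes span from about 1 CPM per kb for SRXN1 to 413 for TXN in DMSO, and the 3 groups lie close together for each gene.

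Total counts per library ranged from 27964128 to 44803380. The transcripts of the degron-tagged genes do not check depletion of the proteins, and neither passed the threshold: PRPS1 had a log2 fold change of 0.09 with dTAG47 and 0.08 with AGB1, and PRPSAP1 had 0.01 and −0.02. Of 9 genes taken as typical of HEK293T cells, VIM was at 354 CPM over all libraries, NEFM at 193, NEFL at 101, CDH2 at 72.1, KRT18 at 52.0 and KRT8 at 31.4. The kidney lineage factors were low, with LHX1 at 3.06 CPM and PAX2 at 1.37, and SOX11 was listed at 0. Of 10 markers of other cell types, COL1A1 was at 27.0 CPM and EPCAM at 2.13, and the other 8 were between 0.00248 and 0.149 CPM. Deviations of some libraries from the gene means were correlated with transcript GC content, most strongly in dTAG47 1 (Spearman's rho across genes 0.623) and DMSO 1 (−0.378). In the AGB1 libraries rho lay between −0.0269 and 0.0497. In these bulk libraries, fewer cells with a transcript and less of it per cell cannot be told apart.

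With dTAG47, none of the 10 genes passed the threshold of an adjusted p under 0.05 in edgeR's quasi-likelihood test, where 0.06% of the tested genes did. DESeq2 and limma-voom likewise called 0 of the 10, against 0.257% and 0.0546% of all genes. At an unadjusted p under 0.05 there was 1 member, NQO1, against 7.28% of all genes. In 0 members were the dTAG47 libraries all above or all below the DMSO libraries, which held for 5.8% and 5.82% of genes. The log2 fold change was positive in 3 and negative in 7, with a median of −0.03, against a median of −0.000974 over all tested genes.

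Both regulators were close to their DMSO levels. NFE2L2 (ENSG00000116044, GRCh38 chromosome 2, 177227595 to 177392697, minus strand) was at 55.4, 62.0 and 56.9 CPM with dTAG47, against 62.5, 58.8 and 55.6 in DMSO. The 2 groups covered almost the same range, and the log2 fold change was −0.02 (SE 0.08, edgeR adjusted p = 0.9754). KEAP1 (ENSG00000079999, chromosome 19, 10486120 to 10503741, minus strand) was at 117, 111 and 108 CPM with dTAG47, against 114, 101 and 127 in DMSO, a log2 fold change of −0.03 (SE 0.07). Its dTAG47 libraries lay inside the DMSO range. KEAP1 has the most GC-rich transcript of the 10 (60.3%), and its highest values were in DMSO 3 and dTAG47 1, the libraries whose deviations rose with GC content (rho 0.271 and 0.623). With the GC trend removed, its log2 fold change with dTAG47 moved away from 0, from −0.0271 to −0.0656 (edgeR adjusted p = 0.846). In each comparison with DMSO it was then within 0.07 of 0.

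Among the thioredoxin genes, TXN (ENSG00000136810, chromosome 9, 110243811 to 110256640, minus strand) was at 413, 453 and 464 CPM with dTAG47, against 444, 509 and 461 in DMSO. The dTAG47 1 library was the lowest of the 6, the others overlapped, and the log2 fold change was −0.09 (95% interval −0.20 to 0.02). TXNRD1 (ENSG00000198431, chromosome 12, 104215779 to 104350305, plus strand) had 274, 299 and 287 CPM with dTAG47, against 282, 271 and 282 in DMSO. The groups overlapped at a log2 fold change of 0.04 (−0.06 to 0.15). PRDX1 (ENSG00000117450, chromosome 1, 45511036 to 45523047, minus strand) had 352, 383 and 377 CPM with dTAG47, against 369, 384 and 397 in DMSO, and also overlapped (−0.05, interval −0.15 to 0.05). Of the exonic bases of PRDX1, 24.9% are shared with MMACHC on the opposite strand (40.2 CPM with dTAG47, 38.3 with AGB1 and 37.7 in DMSO), and the strand setting of the counting is not given in the sources used here. SRXN1 (ENSG00000271303, chromosome 20, 646615 to 653370, minus strand) was at 2.67, 2.19 and 2.34 CPM with dTAG47, against 2.30, 1.96 and 3.13 in DMSO. Its log2 fold change of −0.04 carried an interval of −0.57 to 0.48, and became 0.06 when its counts were summed with those of AL121758.1.

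In the glutathione branch, GCLC (ENSG00000001084, chromosome 6, 53497341 to 53616970, minus strand) encodes the catalytic subunit of glutamate-cysteine ligase. It was at 53.1, 54.2 and 57.0 CPM with dTAG47, against 54.1, 52.9 and 51.4 in DMSO, a log2 fold change of 0.05 (−0.10 to 0.21) with overlapping libraries. GCLM (ENSG00000023909, chromosome 1, 93885205 to 93909456, minus strand), the modifier subunit that raises the activity of the enzyme, was at 55.7, 59.0 and 59.2 CPM with dTAG47, against 59.0, 53.9 and 57.1 in DMSO (0.03, interval −0.12 to 0.19). GSR (ENSG00000104687, chromosome 8, 30678061 to 30727999, minus strand), glutathione reductase, was at 99.4, 102 and 95.9 CPM with dTAG47, against 97.3, 106 and 103 in DMSO (−0.04, interval −0.18 to 0.10). In each of these 3 genes the groups overlapped.

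NQO1 (ENSG00000181019, chromosome 16, 69706996 to 69726951, minus strand), a quinone reductase often used as a readout of NRF2 activity, had the largest log2 fold change of the 10 in size. It was at 12.3, 10.1 and 10.005 CPM with dTAG47, against 12.1, 12.9 and 15.4 in DMSO. Library dTAG47 1 lay above DMSO 1, so the groups overlapped. The log2 fold change was −0.31 (SE 0.14, 95% interval −0.60 to −0.03, edgeR adjusted p = 0.629), which does not pass. With a library left out, the log2 fold change ran from −0.42 (without dTAG47 1) to −0.21 (without DMSO 3, the highest library).

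**Figure D2:**
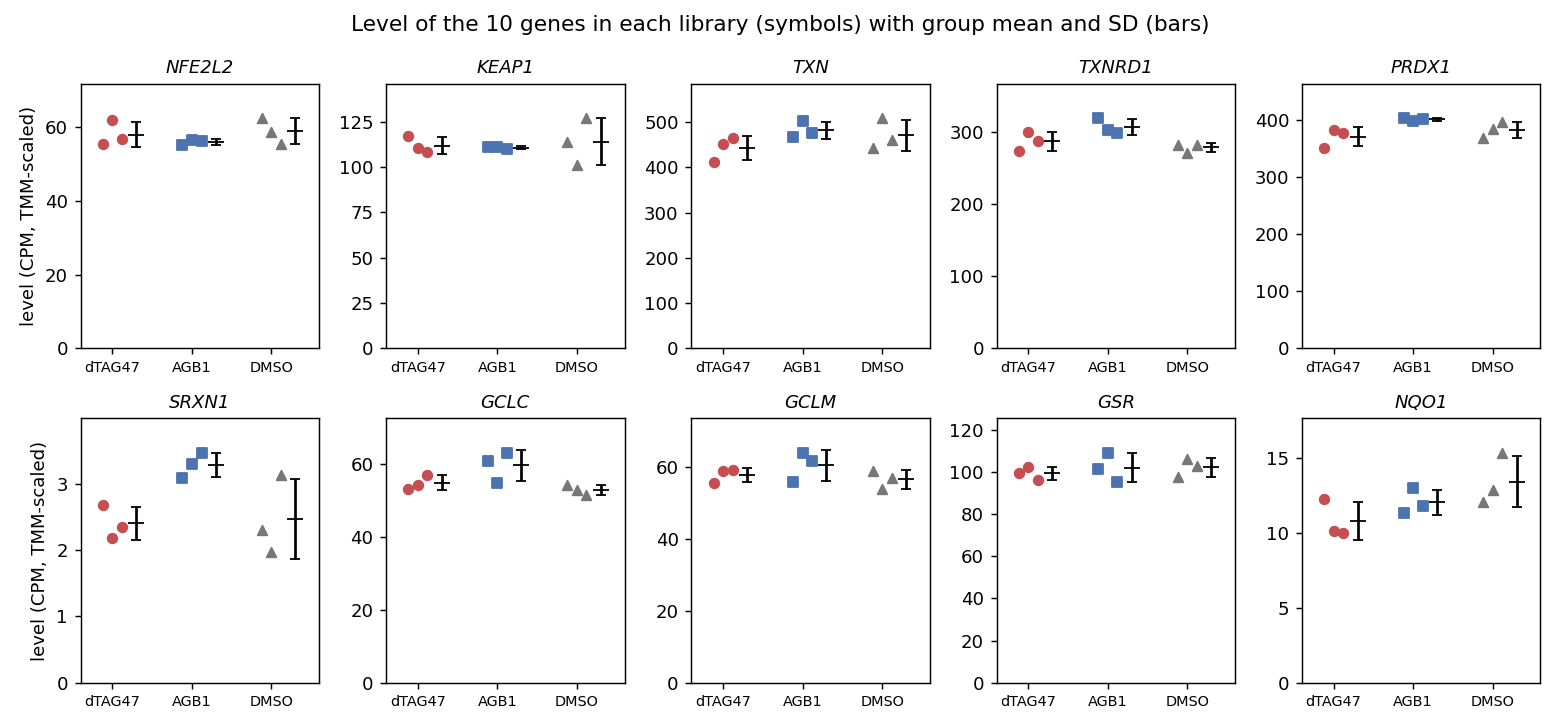
Level (CPM, linear axis from 0) of the 10 genes in each of the 9 libraries, with 1 panel per gene; symbols are libraries in the order of their replicate number, and bars are group mean and SD. TXNRD1, PRDX1 and GCLC have all 3 AGB1 libraries above the 3 DMSO libraries, and the dTAG47 libraries overlap DMSO in all 10 panels.

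With AGB1, 0 of the 10 genes passed the threshold in edgeR's test, against 0.104% of all genes, and 0 passed in DESeq2 (0.442% of all genes) or limma-voom (0.0873%). At an unadjusted p under 0.05 there were 2 members, TXNRD1 and GCLC, against 7.76% of all genes. The AGB1 libraries were all above the DMSO libraries in 3 members, TXNRD1, PRDX1 and GCLC, and all below in 0, against 6.56% and 6.75% of all genes. The log2 fold change was positive in 6 and negative in 4, with a median of 0.05 against −0.000924 over all tested genes.

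TXNRD1 was at 319, 303 and 298 CPM with AGB1, against 282, 271 and 282 in DMSO. Every AGB1 library lay above every DMSO library, and the mean was 306 ± 11.04 with AGB1 and 278 ± 6.45 in DMSO (SD, n = 3). The log2 fold change of 0.14 (SE 0.05, 95% interval 0.03 to 0.25) corresponds to 10.1% and had an edgeR adjusted p of 0.467, so it was not called. PRDX1, whose protein receives electrons from thioredoxin, was at 404, 399 and 402 CPM with AGB1, against 369, 384 and 397 in DMSO. The AGB1 values were close together and DMSO 3 was just below them, at a log2 fold change of 0.07 (−0.03 to 0.17). With a library left out, this value ran from 0.04 (without DMSO 1) to 0.09. TXN itself was at 467, 503 and 477 CPM with AGB1, inside the DMSO range of 444 to 509 (0.03, interval −0.08 to 0.15). SRXN1 was at 3.09, 3.29 and 3.46 CPM with AGB1, against 2.30, 1.96 and 3.13 in DMSO. DMSO 3 fell among the AGB1 libraries, and the log2 fold change of 0.41 had an interval from −0.12 to 0.93 (edgeR adjusted p = 0.744), and became 0.27 without DMSO 2 and 0.62 without DMSO 3.

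GCLC was at 60.9, 54.8 and 63.0 CPM with AGB1, against 54.1, 52.9 and 51.4 in DMSO. The lowest AGB1 library was just above DMSO 1, and the log2 fold change was 0.17 (SE 0.08, 95% interval 0.02 to 0.33, edgeR adjusted p = 0.568). Its partner GCLM was at 55.8, 64.0 and 61.7 CPM with AGB1, against 59.0, 53.9 and 57.1 in DMSO, with overlap and a log2 fold change of 0.09 (−0.06 to 0.25). GSR was at 101, 109 and 95.2 CPM with AGB1, a log2 fold change of −0.00307 with an interval of −0.14 to 0.13.

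The regulators and NQO1 were not higher with AGB1. NFE2L2 was at 55.1, 56.7 and 56.2 CPM with AGB1, within the DMSO range apart from AGB1 1, the lowest of the 6 (log2 fold change −0.07, interval −0.23 to 0.08). KEAP1 was at 111, 111 and 110.0 CPM with AGB1, inside the DMSO range (−0.04, interval −0.19 to 0.10). NQO1 was at 11.4, 13.0 and 11.8 CPM with AGB1, against 12.1, 12.9 and 15.4 in DMSO. Its log2 fold change was −0.16 (SE 0.14, interval −0.44 to 0.12). With a library left out, it ran from −0.23 to −0.05, the latter without DMSO 3.

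The direct comparison sets the dTAG47 libraries against the AGB1 libraries, with the DMSO libraries entering only the shared estimate of the spread. It called 0 genes in all, 0% of those tested, in edgeR, DESeq2 and limma-voom alike, while 4.02% of genes had an unadjusted p under 0.05 in edgeR. Among the members, TXN and PRDX1 were under that unadjusted level, and 8 of 10 log2 fold changes were negative, with a median of −0.11 against 5.54e-05 over all genes. All dTAG47 libraries lay below all AGB1 libraries in 3 members, TXN, PRDX1 and SRXN1, and above in 0, against 5.1% and 5.35% of all genes. TXN averaged 443 ± 27.0 CPM with dTAG47 and 482 ± 18.7 with AGB1 (SD, n = 3), a log2 difference of −0.12 (SE 0.05, 95% interval −0.23 to −0.01). PRDX1 averaged 371 ± 16.8 CPM with dTAG47 and 401 ± 2.27 with AGB1, a log2 difference of −0.11 (SE 0.05, interval −0.22 to −0.01). SRXN1 averaged 2.40 ± 0.247 CPM with dTAG47 and 3.28 ± 0.187 with AGB1, a log2 difference of −0.45 (SE 0.26, interval −0.98 to 0.07). The edgeR adjusted p was 0.999 for each, so a difference between the degraders was not shown for any of the 10 genes. The lowest dTAG47 library for TXN and PRDX1 was dTAG47 1, the one with the strongest correlation with GC content. Without that library the log2 difference was −0.07 for TXN and −0.08 for PRDX1. Over the fits with any library left out, it ran from −0.16 to −0.07 for TXN and from −0.14 to −0.08 for PRDX1. With the GC trend removed and all libraries kept, it was −0.11 for TXN and −0.12 for PRDX1.

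HMOX1, heme oxygenase and a classical NRF2 target outside the 10, rose in the same libraries. It was at 55.2, 63.7 and 56.1 CPM with dTAG47 and at 60.7, 62.3 and 61.3 with AGB1, against 40.6, 37.8 and 40.1 in DMSO. No treated library overlapped a DMSO library. The log2 fold change was 0.56 (95% interval 0.40 to 0.72, edgeR adjusted p = 0.00127) with dTAG47 and 0.64 (0.47 to 0.80, adjusted p = 0.000126) with AGB1, and it was called without each library in turn. In both comparisons 9 of the 10 members had an upper 95% limit below the lower limit of HMOX1, the exception being SRXN1, whose interval is wide. HMOX1 ranked 1 by edgeR p among the 18319 tested genes in both comparisons, and was named with earlier results of these data known. The gap between its interval and those of the members is therefore a description and not a test. For the 8 members at 50 CPM or more, the intervals ran from 12.9% lower to 15.6% higher with dTAG47, and from 14.7% lower to 25.7% higher with AGB1. Differences between genes were not tested.

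**Figure D3:**
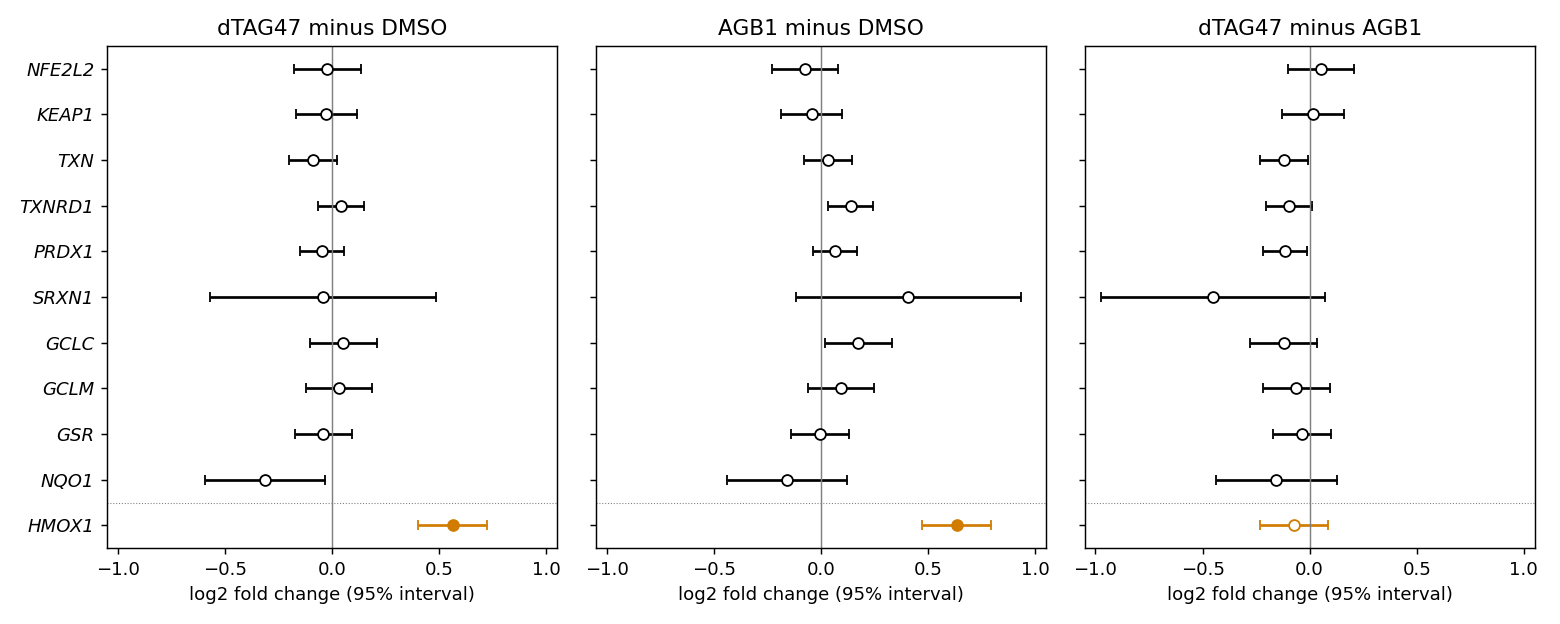
Log2 fold change with its 95% interval for the 10 genes and HMOX1 (below the dotted line) in the 3 comparisons; filled symbols have an edgeR adjusted p under 0.05. HMOX1 stands at 0.56 with dTAG47 and 0.64 with AGB1, and the open symbols of the 10 genes lie between −0.31 and 0.41 in those comparisons.

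The wider system was read from 5 lists of genes, which hold 96 further names, 86 of them tested. For single genes higher with the treatment, the share over all tested genes was 0.0328% with dTAG47 and 0.0546% with AGB1. Among 12 NRF2 regulators outside the 10, which include small MAF genes, the repressor BACH1 and the CUL3 ligase, 0 passed in either comparison by edgeR, DESeq2 or limma-voom, with medians of 0.01 and 0.02. In edgeR 2 of the 12 with dTAG47 and 1 with AGB1 were higher at an unadjusted p under 0.05, and 0 were lower. Over all genes, 7.28% with dTAG47 and 7.76% with AGB1 were under that level in either direction. The libraries lay all above DMSO in 1 with dTAG47 and 0 with AGB1, and all below in 0 and 1. Over all genes the shares were 5.8% above and 5.82% below with dTAG47, and 6.56% and 6.75% with AGB1. SQSTM1, the autophagy receptor p62 that binds KEAP1, was at 147, 136 and 139 CPM with dTAG47 and 133, 147 and 138 with AGB1, against 118, 115 and 133 in DMSO. Its log2 fold changes were 0.20 with dTAG47 (SE 0.06, edgeR adjusted p = 0.404) and 0.19 with AGB1 (SE 0.07, adjusted p = 0.388), neither past the threshold. Its exonic bases are shared to 20.7% with MRNIP on the opposite strand. DPP3, a peptidase that also binds KEAP1, had 0.19 with dTAG47 and −0.03 with AGB1, and the NRF2 relative NFE2L3 had −0.01 and −0.20.

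In the list of 20 further thioredoxin and peroxiredoxin genes, all tested, 0 passed in either comparison by edgeR or limma-voom and 1, SESN2, passed in both by DESeq2. In each comparison 2 of the 20 had an unadjusted edgeR p under 0.05, against 7.28% of all genes with dTAG47 and 7.76% with AGB1. The libraries lay all above DMSO in 1 with dTAG47 and in 1 with AGB1, and all below in 0 and 1. Over all genes the shares were 5.8% above and 5.82% below with dTAG47, and 6.56% and 6.75% with AGB1. The medians were −0.01 with dTAG47 and 0.06 with AGB1. SESN2, a sestrin induced by stress that restrains mTORC1, came closest. It was at 167, 172 and 180 CPM with dTAG47 and 166, 171 and 166 with AGB1, against 137, 134 and 155 in DMSO, so that every treated library was above every DMSO library. Its log2 fold change was 0.29 with dTAG47 (SE 0.06, edgeR adjusted p = 0.0910) and 0.24 with AGB1 (SE 0.06, adjusted p = 0.168). TXNDC17, a thioredoxin-like protein whose exonic bases are shared to 32.4% with MED31 on the opposite strand, had −0.18 and −0.01, and the glutaredoxin GLRX had −0.06 and −0.29. Between the degraders, 15 of these 20 genes were lower with dTAG47 than with AGB1 (median −0.06). None of them passed, or had an unadjusted p under 0.05, in edgeR. Over all tested genes the median was 5.54e-05, and 9166 of 18319 were higher with dTAG47. In the other lists, 4 of 12 regulators, 17 of 27 glutathione genes, 13 of 19 other NRF2 targets and 5 of 9 antioxidant enzymes were lower with dTAG47. Differences between the lists were not tested.

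In the list of 32 genes for glutathione synthesis, use and breakdown, 27 were tested and 1 rose in each comparison. At an unadjusted edgeR p under 0.05, 3 of the 27 were higher with dTAG47 and 6 with AGB1, and 0 were lower in either. Over all genes, 7.28% with dTAG47 and 7.76% with AGB1 were under that level in either direction. The libraries lay all above DMSO in 3 with dTAG47 and in 7 with AGB1, and all below in 0. Over all genes the shares were 5.8% above and 5.82% below with dTAG47, and 6.56% and 6.75% with AGB1. The gene that rose was CHAC1, which degrades glutathione and is induced by the transcription factor ATF4. CHAC1 was at 12.4, 10.3 and 12.4 CPM with dTAG47 and 10.3, 12.03 and 13.2 with AGB1, against 5.30, 7.60 and 7.15 in DMSO. Its log2 fold change was 0.80 with dTAG47 (SE 0.16, edgeR adjusted p = 0.0330) and 0.82 with AGB1 (SE 0.16, adjusted p = 0.0207). With dTAG47 the call ended without DMSO 1 (adjusted p = 0.175), DMSO 2 (0.0706), dTAG47 1 (0.193), dTAG47 3 (0.223) or AGB1 2 (0.0536), in limma-voom (0.0783) and in a fit of those 2 groups alone (0.0917). With AGB1 it ended without DMSO 1 (adjusted p = 0.122), AGB1 2 (0.0922) or AGB1 3 (0.228) and in limma-voom (0.0566). SLC7A11, which imports the cystine for glutathione synthesis, was at 49.6, 51.4 and 54.4 CPM with AGB1, against 46.6, 42.1 and 31.6 in DMSO (0.37, SE 0.11, adjusted p = 0.270), and had 0.14 with dTAG47. ABCC1, an exporter of glutathione conjugates, had 0.14 and 0.10. The medians of the list were 0.05 with dTAG47 and 0.07 with AGB1.

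Of 23 other NRF2 targets, 19 were tested, and 3 in each comparison were higher at an unadjusted edgeR p under 0.05, with 0 lower. Over all genes, 7.28% with dTAG47 and 7.76% with AGB1 were under that level in either direction. The libraries lay all above DMSO in 5 with dTAG47 and in 6 with AGB1, and all below in 1 with dTAG47 and 0 with AGB1. Over all genes the shares were 5.8% above and 5.82% below with dTAG47, and 6.56% and 6.75% with AGB1. HMOX1 was the 1 that rose with dTAG47, and HMOX1 and FTH1, the ferritin heavy chain that stores iron, were the 2 that rose with AGB1. FTH1 was at 181, 182 and 179 CPM with dTAG47 and 193, 181 and 190.0 with AGB1, against 147, 158 and 153 in DMSO. Its log2 fold change was 0.30 with AGB1 (SE 0.06, edgeR adjusted p = 0.0151) and 0.24 with dTAG47 (SE 0.06, adjusted p = 0.128). The AGB1 call ended without DMSO 1 (adjusted p = 0.0741), DMSO 2 (0.0560), AGB1 1 (0.174) or AGB1 3 (0.171), and with dTAG47 it was called in DESeq2 (0.00521) and with the GC trend removed (0.0326). Its exonic bases are shared to 62.4% with BEST1 on the opposite strand (0.727 CPM), and 30.8% of its 75-base words occur in transcripts of 12 other genes, so its count is uncertain to that extent. The medians of the list were 0.02 with dTAG47 and 0.05 with AGB1.

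Among 10 superoxide dismutases and other antioxidant enzymes, 9 were tested and 0 passed by edgeR, DESeq2 or limma-voom, with medians of 0.01 and 0.03. In each comparison 1, CCS, had an unadjusted edgeR p under 0.05, against 7.28% of all genes with dTAG47 and 7.76% with AGB1. The libraries lay all above DMSO in 1 with dTAG47 and in 2 with AGB1, and all below in 1 in each comparison. Over all genes the shares were 5.8% above and 5.82% below with dTAG47, and 6.56% and 6.75% with AGB1. CCS, the copper chaperone of superoxide dismutase, was at 23.3, 20.8 and 19.4 CPM with dTAG47 and 21.4, 23.9 and 21.1 with AGB1, against 15.4, 16.9 and 19.1 in DMSO. All treated libraries were above the DMSO libraries, at log2 fold changes of 0.30 (SE 0.11, edgeR adjusted p = 0.533) and 0.37 (SE 0.11, adjusted p = 0.321). SOD2, the mitochondrial superoxide dismutase, had 0.01 with dTAG47 and 0.14 with AGB1, and its AGB1 libraries were all above the DMSO libraries. The quinone reductase NQO2 had 0.13 and 0.08.

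**Figure D4:**
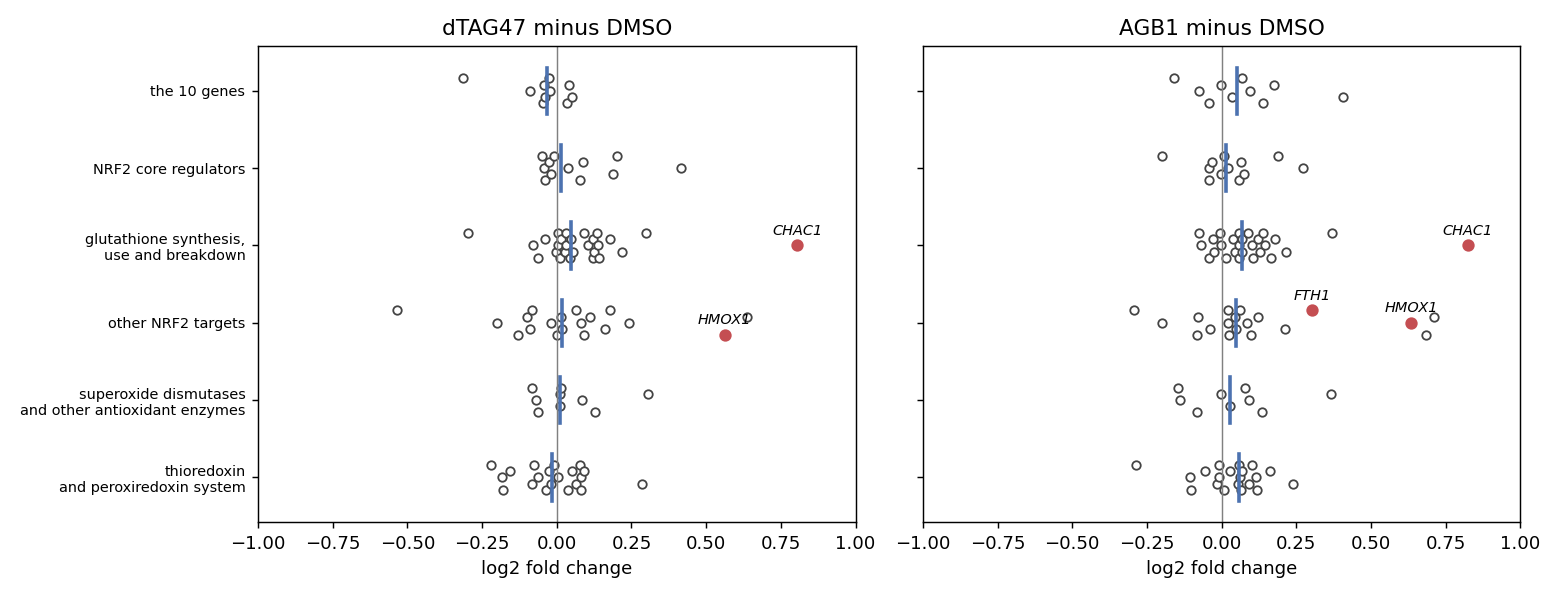
Log2 fold change of every tested gene in the 10 and in the 5 lists (rows) for dTAG47 and AGB1 against DMSO; filled red points are past the threshold and named, and the blue line is the median of the row. HMOX1 and CHAC1 are called in both panels and FTH1 with AGB1, and the 10 genes have medians of −0.03 and 0.05 with no called point.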

How the data were processed

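RNA was sequenced from 9 HEK293T libraries, 3 per treatment. Per the labels' protocols, poly-T beads were used to select messenger RNA, which was copied with random hexamers. The deposited files hold raw counts per Ensembl gene, 1 library per file. Per the submitters' processing notes, HISAT2, DESeq2 and the build hg38 were used; no version, counting tool or strand setting is given in the sources used here. All 58735 genes match GENCODE 29 in start, end and strand.

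Tests on the deposited counts used edgeR 4.0.16 (R 4.3.3): filterByExpr by group (18319 genes), TMM, and 1 quasi-likelihood fit of all 9 libraries with a coefficient per group. Tests are two-sided, adjusted by Benjamini-Hochberg over all tested genes, with a threshold of 0.05. Standard errors are log2 fold changes (absolute) over the root of F. The fit was tested on simulated counts. Depth was 27964128 to 44803380 counts, so that 3 counts equal 0.0670 to 0.107 CPM; reads carry no molecular identifiers, so this covers counting error only. The median standard error at 5 CPM or more was 0.09 (log2).

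Alternatives were DESeq2 1.42.0, limma-voom (limma 3.58.1), 3 other scalings, 2 other count filters, protein-coding genes only, the 2 groups compared alone, a replicate block, subtraction of the GC trend (lowess, span 0.3) with and without that block, and each library left out. The sum of SRXN1 and AL121758.1 was chosen after seeing the data. The 10 genes and the lists were chosen with earlier results of these data known. Named in the text are the 10 genes, HMOX1, the degron-tagged genes, markers, and from each list the genes past the threshold and the 2 with the smallest p against DMSO. The 3 genes closest in profile to the member whose group means differ most are also named. A symbol listed more than once (SOD2) was read from its row with the most counts.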

Additional observations from a re-analysis of the deposited data

How the results depend on the processing

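None of the 10 genes was called in any of the 3 comparisons under any of the 12 other settings or without any of the 9 libraries. The count of all genes called, 11 with dTAG47, was 47 in DESeq2, 43 with no count filter, 22 with the GC trend removed, 4 in the fit of the 2 groups alone, and 2 to 20 with a library left out (2 without dTAG47 1, 6 without dTAG47 3, 5 without DMSO 1, 3 without DMSO 2, 20 without DMSO 3). For AGB1 it was 19, and 81 in DESeq2, 67 with no count filter, 48 with the GC trend removed, 51 with the GC trend removed and the replicate block, and 6 to 55 with a library left out (9 without AGB1 2, 6 without AGB1 3, 10 without DMSO 1, 7 without DMSO 2, 55 without DMSO 3). For dTAG47 against AGB1 it was 0, then 13 with no count filter and 0 to 2 with a library left out (1 without dTAG47 1, 2 without AGB1 1). The cause was not tested. The members' median with dTAG47 ran from −0.0510 to 0.00458 with a library left out, the highest without DMSO 3. Same-numbered libraries did not deviate together (correlations from −0.156 to 0.0715 over 11436 genes), so the number was not taken as a pairing. With the replicate block 10, 17 and 0 genes were called.

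Of the members' single log2 values, KEAP1 between dTAG47 and AGB1 turned from 0.02 to −0.0138 with the GC trend removed and −0.0131 with the block added, and SRXN1 with dTAG47 turned to 0.0619 when summed with AL121758.1. With a library left out, the ranges that crossed 0 with dTAG47 were −0.0728 to 0.0239 for NFE2L2, −0.107 to 0.0567 for KEAP1, −0.00419 to 0.0630 for GCLM and −0.184 to 0.167 for SRXN1. With AGB1 they were −0.122 to 0.0417 for KEAP1, −0.00617 to 0.0911 for TXN and −0.0542 to 0.0425 for GSR. Between the degraders they were −0.0167 to 0.0361 for KEAP1 and −0.0839 to 0.0127 for GSR, and also −0.115 to 0.0675 for CHAC1. The members with the fewest counts, SRXN1 (63 to 117 a library) and NQO1 (312 to 574), had standard errors of 0.26 and 0.14; how much of this is counting error and how much spread between libraries was not tested.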

Other observations

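Several strong NRF2 targets of other human cells had few or no counted reads in this line. The aldo-keto reductases AKR1C1, AKR1C2, AKR1C3 and AKR1B10, which reduce carbonyl compounds, averaged 0.0238, 0.0263, 0.0477 and 0.0381 CPM over the 9 libraries, below the level that 3 counts give in any of them, and were not tested. Among the glutathione genes, GSTM1 and GPX7 were listed at 0, and OPLAH, GSTT2B and GPX2 averaged 0.0119, 0.0521 and 0.125 CPM. SOD3, the extracellular superoxide dismutase, averaged 0.00595 CPM.

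NQO1 was the member at 5 CPM or more whose group means differed most, by 0.30 on the log2 scale. Over the 9 libraries, the 3 genes of 10838 whose centred log2 levels lay closest to those of NQO1 were CYBA, a subunit of NADPH oxidases, the transcription factor IRF2 and the helicase PIF1, with root mean square differences of 0.07, 0.07 and 0.08. The closeness is a description of these libraries.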
